A study of Mus musculus with 10 samples.

Results

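The Slit, Robo and Srgap genes were examined in the cortical hem (CH), the signaling center at the medial edge of the embryonic cortex. The set holds the 10 mouse genes named Slit1, Slit2, Slit3, Robo1, Robo2, Robo3, Robo4, Srgap1, Srgap2 and Srgap3, defined by gene family, so that no value decided which family members were included, out of 52227 genes with a row in the deposited table. Laser capture yielded CH tissue from 10 mouse embryos at embryonic day 13.5, of which 5 were wild-type and 5 Lmx1a-/-, with 1 library per embryo and no other treatment. The mutants carry the dreherJ (drJ) allele of Lmx1a, a LIM-homeodomain transcription factor, in the germline, so the mutation is not restricted to the CH. The study dissected the entire CH and set its borders by Lmx1a immunostaining of alternate sections. The embryos are separate animals, so p-values below measure the spread between embryos.

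Slit proteins are secreted ligands that bind Robo receptors on migrating cells and growing axons, most often with a repulsive result. The cytoplasmic part of Robo receptors recruits srGAPs (Slit-Robo GTPase-activating proteins), which bend membranes and switch off small GTPases such as Rac1 and Cdc42, and so link the receptor to the actin cytoskeleton. In the developing forebrain this system is known for keeping axons away from the midline and for steering migrating neurons. One product of the CH is the Cajal-Retzius (CR) cell, an early neuron that leaves the CH and spreads over the cortical surface.

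Library totals ranged from 19145952 to 36462780 counts. The CH markers Wnt3a, Wnt2b, Wnt5a, Wnt8b, Lmx1a, Lmo2, Msx1, Bmp4, Bmp7 and Rspo1 were present, and their summed level was 1655 to 2889 normalized CPM (TMM-scaled counts relative to library size) in wild-type and 1866 to 2274 in Lmx1a-/- libraries. That sum was carried by Wnt8b and Rspo1, and 5 of the 10 markers were lower in Lmx1a-/- CH past the threshold used below (edgeR quasi-likelihood FDR under 0.1), with log2 fold changes of -2.37 for Lmo2, -2.11 for Msx1, -1.02 for Wnt2b, -0.91 for Bmp7 and -0.41 for Wnt5a. The part of these changes in the results below was not tested. Lmx1a RNA itself was 71.2 ± 18.2 normalized CPM in wild-type and 114 ± 21.0 in Lmx1a-/- CH (SD, n = 5 each), a log2 fold change of 0.68 (edgeR quasi-likelihood FDR = 0.0658). Counts per gene do not separate transcripts of the mutant allele from normal ones, so this row does not check the genotype. Xist lay between 4399 and 5169 normalized CPM in wild-type embryos 2 to 5 and was about 1 or less in wild-type embryo 1 or any Lmx1a-/- embryo, and Y-linked transcripts (Ddx3y, Eif2s3y, Kdm5d and Uty) showed the reverse. Genotype and sex were therefore nearly confounded, with 1 wild-type embryo of the mutants' sex. Wild-type embryo 3 stood apart from the other wild-type embryos in tissue markers, with the lowest CH sum (1655), the lowest choroid plexus epithelium sum (133) and the highest meninges and mesenchyme sum (1041).

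Of the 10 genes, 4 passed the threshold of FDR under 0.1 in edgeR's quasi-likelihood test. The ligands Slit2 and Slit3 and the effector Srgap2 were lower in Lmx1a-/- CH, and the receptor Robo2 was higher. Across all 21664 genes tested, 2.29% were lower, 1.72% were higher and 4.02% changed in either direction. The median log2 fold change of the 10 genes was -0.35, beside -0.0049 over all genes tested. All 10 passed the filter on low counts. In bulk RNA, fewer cells of a type and less RNA per cell cannot be told apart, which holds for every difference below.

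**Figure D1:**
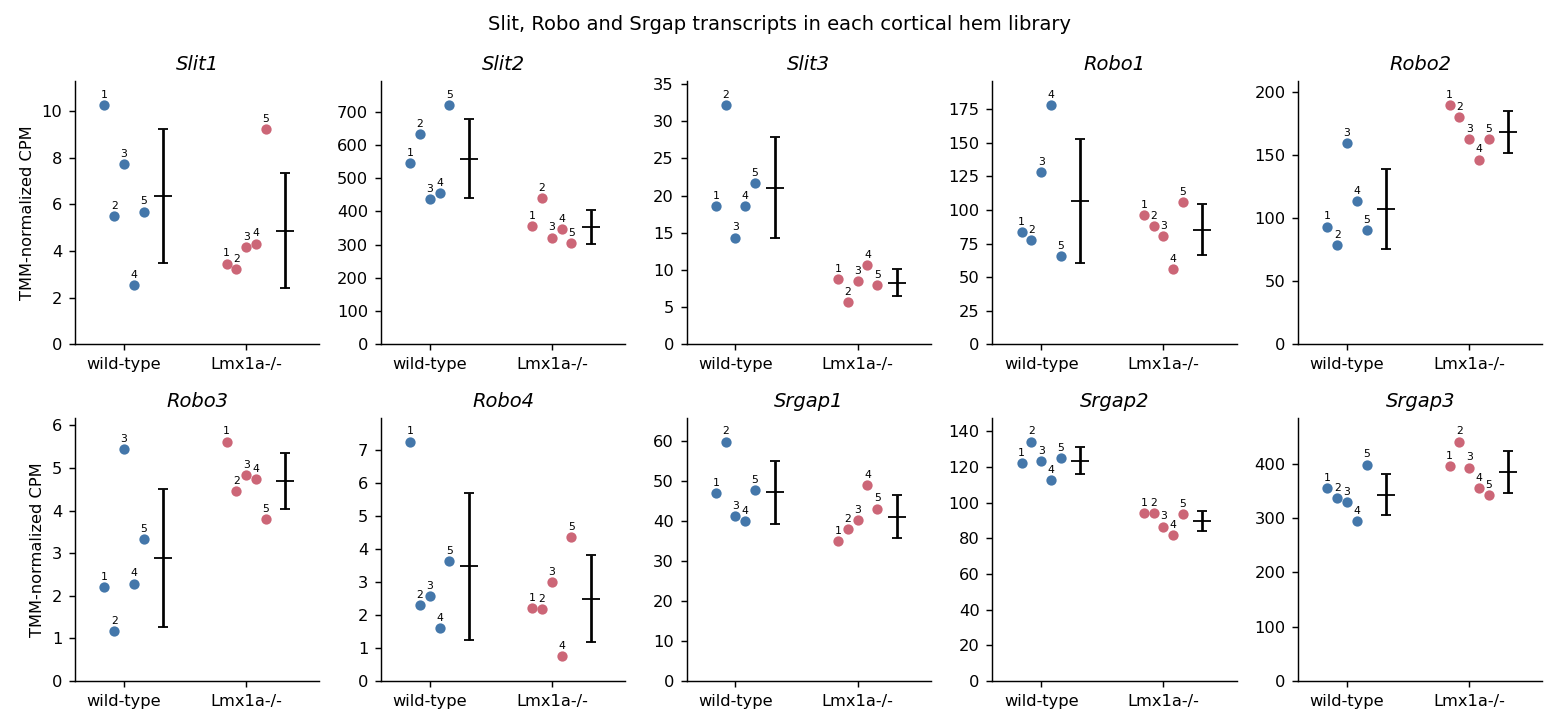
Normalized CPM (TMM-scaled, linear axis from 0) of the 10 genes in each CH library, with wild-type embryos in blue and Lmx1a-/- embryos in red, numbered as in the labels. Black bars give the mean ± SD of 5 embryos. Slit3 and Srgap2 show no overlap between genotypes, and Slit2, Robo2 and Robo3 overlap through wild-type embryo 3 alone.

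Slit2, the ligand with the most RNA here, was measured at 545, 633, 437, 456 and 720 normalized CPM in wild-type embryos 1 to 5 and at 354, 439, 320, 346 and 304 in Lmx1a-/- embryos 1 to 5. Wild-type embryo 3 fell just under Lmx1a-/- embryo 2, and every other wild-type embryo lay above every mutant. The means were 558 ± 119 and 353 ± 52.4 (SD, n = 5 each), a log2 fold change of -0.66 (SE 0.14, 95% interval -0.96 to -0.36, edgeR quasi-likelihood FDR = 0.0262), or 1.58-fold lower in Lmx1a-/- CH. The gene lies at chr5:47983138-48307733 on the plus strand of GRCm38 (GENCODE M21).

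Slit3 had the largest fold difference of the 3 ligands. Its level was 18.6, 32.2, 14.4, 18.6 and 21.7 normalized CPM in wild-type embryos 1 to 5, against 8.71, 5.65, 8.52, 10.6 and 7.93 in Lmx1a-/- embryos 1 to 5. The lowest wild-type embryo was above the highest mutant. The means of 21.1 ± 6.74 and 8.29 ± 1.79 (SD, n = 5 each) gave a log2 fold change of -1.34 (SE 0.22, 95% interval -1.81 to -0.87, edgeR quasi-likelihood FDR = 0.00628), or 2.53-fold lower. The study picked Slit3 as a CH marker partly because it was lower in these same libraries, so its direction here is not independent evidence. Slit3 lies at chr11:35121224-35708507 on the plus strand.

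Slit1, which acts with Slit2 at the forebrain midline, was much scarcer. Its values were 10.3, 5.50, 7.74, 2.54 and 5.69 normalized CPM in wild-type and 3.46, 3.21, 4.16, 4.32 and 9.22 in Lmx1a-/- embryos. The genotypes overlapped widely, with Lmx1a-/- embryo 5 above 4 of the 5 wild-type embryos. The log2 fold change of -0.38 (95% interval -1.17 to 0.40, edgeR quasi-likelihood FDR = 0.654) did not pass the threshold, and its interval holds both a halving and no difference. Slit1 lies at chr19:41600257-41743665 on the minus strand.

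The introns of Slit2 and Slit3 each hold a gene for the microRNA miR-218, a short RNA known to target Robo1 and Robo2 transcripts. The mature sequences are shown because both ligand genes give the same 5p arm. They are from RefSeq (GRCm38.p6), written 5′ to 3′ with the seed (bases 2 to 8) in capitals.
miR-218-5p of Mir218-1, in Slit2, chr5:48223966-48223986, plus strand: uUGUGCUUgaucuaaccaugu
miR-218-5p of Mir218-2, in Slit3, chr11:35616840-35616860, plus strand: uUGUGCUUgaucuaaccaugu
miR-218-1-3p, chr5:48224005-48224026, plus strand: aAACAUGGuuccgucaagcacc
miR-218-2-3p, chr11:35616882-35616903, plus strand: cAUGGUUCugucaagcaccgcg
The 5p arms share their seed, and the 3p arms differ in theirs. Both miRNA genes lie outside the exons of their host genes and on the host's strand.

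These libraries were made with an mRNA kit and do not measure mature miRNAs. Reads on the Mir218-1 row came to 12, 22, 41, 24 and 37 counts in wild-type and 17, 5, 40, 20 and 7 in Lmx1a-/- embryos, and the genotypes overlapped (log2 fold change -0.79, 95% interval -1.91 to 0.32, edgeR quasi-likelihood FDR = 0.488). The Mir218-2 row held 0, 0, 2, 4 and 1 counts in wild-type and 0 in every Lmx1a-/- embryo, too few to be tested.

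Rows of genes that lie between the exons of Slit2, Mir218-1 among them, were looked up after the values of Slit2 were known. All 7 were tested and all 7 had a negative log2 fold change, from -0.92 to -0.24, and 1 of them, Gm42536, passed the threshold (edgeR quasi-likelihood FDR = 0.0704). Reads of these rows and reads of unspliced Slit2 RNA cannot be told apart.

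The bases just before the start of Slit2 are shown because its window is the only one of the 3 lower genes with a TATA box. The stretch is at chr5:47982905-47983137, plus strand, from RefSeq (GRCm38.p6) and stops before the first base of the gene in GENCODE, with the TATA box (TATAAA, either strand) and any homeodomain core (TAAT, either strand) in capitals.
Slit2: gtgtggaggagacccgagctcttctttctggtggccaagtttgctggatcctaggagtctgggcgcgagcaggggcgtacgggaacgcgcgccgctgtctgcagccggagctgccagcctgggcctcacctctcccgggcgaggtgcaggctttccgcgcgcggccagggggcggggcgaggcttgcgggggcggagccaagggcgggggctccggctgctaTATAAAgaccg
The TATA box begins 28 bases before the RefSeq start. The 250 bases before that start hold no TAAT and 25 CpG, and 69.6% of them are G or C, against medians of 6 CpG and 52.4% over 32817 mouse windows of the same length. In the same windows TATAAA was found in 12.4% and TAAT in 54.9%. The window of Slit3 (chr11:35121206-35121455) held neither motif, 35 CpG and 78.8% G or C. Most of that window lies inside the gene as annotated in GENCODE, which starts it at 35121224. A match or its absence says nothing of whether a factor binds.

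Robo2, a main receptor for Slit2 in the forebrain, was the single gene of the set that rose past the threshold. It was measured at 93.4, 78.5, 160, 113 and 90.7 normalized CPM in wild-type embryos 1 to 5 and at 190, 180, 163, 147 and 163 in Lmx1a-/- embryos 1 to 5. Wild-type embryo 3 was above Lmx1a-/- embryo 4, and the other wild-type embryos were below every mutant. The means of 107 ± 31.9 and 168 ± 16.9 (SD, n = 5 each) gave a log2 fold change of 0.65 (SE 0.16, 95% interval 0.31 to 1.00, edgeR quasi-likelihood FDR = 0.055), or 1.57-fold higher.

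With 1 embryo left out at a time, this call was less stable than the calls of the ligands. Robo2 stayed under the threshold in 5 of the 10 fits that left out 1 embryo each. It missed it without wild-type embryo 1, 2 or 5 or Lmx1a-/- embryo 2 or 5, with edgeR quasi-likelihood FDR up to 0.133, and without wild-type embryo 3 the FDR was 0.00134. The log2 fold change stayed between 0.55 and 0.84 in these fits. Robo2 lies at chr16:73891839-74411825 on the minus strand. Of 6 tested rows for genes between its exons, looked up after its values were known, 5 had a positive log2 fold change, and Gm49659 (1.2, edgeR quasi-likelihood FDR = 0.0215) and Gm49658 (0.58, FDR = 0.071) passed the threshold. Reads of these rows and reads of unspliced Robo2 RNA cannot be told apart.

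Robo1, the paralog of Robo2 beside it on chromosome 16 (chr16:72308306-73046095, plus strand), did not move with it. Wild-type embryos 1 to 5 had 83.8, 77.4, 128, 178 and 65.7 normalized CPM, and Lmx1a-/- embryos 1 to 5 had 96.3, 88.2, 80.8, 55.9 and 106. The wild-type embryos spanned the whole range of the mutants except Lmx1a-/- embryo 4, the lowest of all. The log2 fold change was -0.32 (SE 0.25, 95% interval -0.86 to 0.21, edgeR quasi-likelihood FDR = 0.568).

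Robo3, a divergent receptor that lowers the response of commissural axons to Slits, was near the bottom of the set. It had 2.20, 1.17, 5.44, 2.28 and 3.32 normalized CPM in wild-type and 5.62, 4.46, 4.84, 4.74 and 3.79 in Lmx1a-/- embryos. All mutants were above 4 of the 5 wild-type embryos, and wild-type embryo 3 was above 4 of the 5 mutants. The log2 fold change of 0.69 (95% interval -0.03 to 1.41) did not pass (edgeR quasi-likelihood FDR = 0.327), and without wild-type embryo 3 the gene passed (FDR = 0.0884).

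Robo4, the Robo of blood vessels, had 7.24, 2.30, 2.56, 1.61 and 3.62 normalized CPM in wild-type and 2.19, 2.17, 3.00, 0.748 and 4.35 in Lmx1a-/- embryos. The genotypes overlapped (log2 fold change -0.48, 95% interval -1.48 to 0.52, edgeR quasi-likelihood FDR = 0.659). The summed level of 10 endothelial markers was highest in wild-type embryo 1 (92.7 normalized CPM) and lowest in Lmx1a-/- embryo 4 (23.5), the embryos with the highest and lowest Robo4, and its part in the Robo4 values was not tested. Robo3 (chr9:37415669-37433246, minus strand) and Robo4 (chr9:37401897-37415115, plus strand) are neighbors whose annotated exons do not overlap.

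Among the effectors, Srgap2, which promotes filopodia and paces the maturation of neurons, showed the smallest SD relative to its mean in both genotypes. It was measured at 122, 134, 124, 113 and 125 normalized CPM in wild-type embryos 1 to 5 and at 94.2, 94.0, 86.6, 81.7 and 93.4 in Lmx1a-/- embryos 1 to 5. No mutant reached the lowest wild-type embryo. The means of 124 ± 7.71 and 90.0 ± 5.62 (SD, n = 5 each) gave a log2 fold change of -0.46 (SE 0.07, 95% interval -0.61 to -0.30, edgeR quasi-likelihood FDR = 0.00559), or 1.37-fold lower, a smaller fold than that of Slit2 with a lower FDR. Srgap2 lies at chr1:131285251-131527352 on the minus strand.

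The 250 bases before its RefSeq start (chr1:131527362-131527611, minus strand, GRCm38.p6) are shown for contrast with Slit2, with the homeodomain core (TAAT, read here on the other strand) in capitals.
Srgap2: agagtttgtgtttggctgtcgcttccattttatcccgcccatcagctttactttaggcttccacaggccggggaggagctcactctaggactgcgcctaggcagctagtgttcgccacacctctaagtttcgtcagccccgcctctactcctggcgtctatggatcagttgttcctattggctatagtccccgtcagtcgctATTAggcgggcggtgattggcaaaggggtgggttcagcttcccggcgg
The core begins 48 bases before the start, no TATAAA is present, and the window holds 14 CpG with 56.4% G or C. Windows were matched for 9 of the 10 genes (all but Slit1), 11 in all since Robo2 has more than 1 start.

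Srgap1, which inactivates Cdc42 downstream of Robo1, had 47.1, 59.9, 41.3, 40.1 and 47.8 normalized CPM in wild-type and 35.0, 38.1, 40.3, 49.0 and 43.1 in Lmx1a-/- embryos. The genotypes overlapped, and the log2 fold change of -0.20 (95% interval -0.47 to 0.07) did not pass the threshold (edgeR quasi-likelihood FDR = 0.461). Srgap3, the Rac-directed member also called WRP, had 355, 337, 329, 295 and 398 normalized CPM in wild-type and 395, 441, 393, 355 and 342 in Lmx1a-/- embryos. These also overlapped, with a log2 fold change of 0.17 (95% interval -0.03 to 0.36, edgeR quasi-likelihood FDR = 0.389). Srgap1 lies at chr10:121780991-122047315 and Srgap3 at chr6:112717971-112947266, both on the minus strand. Short stretches of their exons overlap other genes, 131 bases (1.43% of the exonic length) of Srgap1 with Gm48804 and 150 bases (1.52%) of Srgap3 with Gm44081, so a small share of their reads is uncertain.

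**Figure D2:**
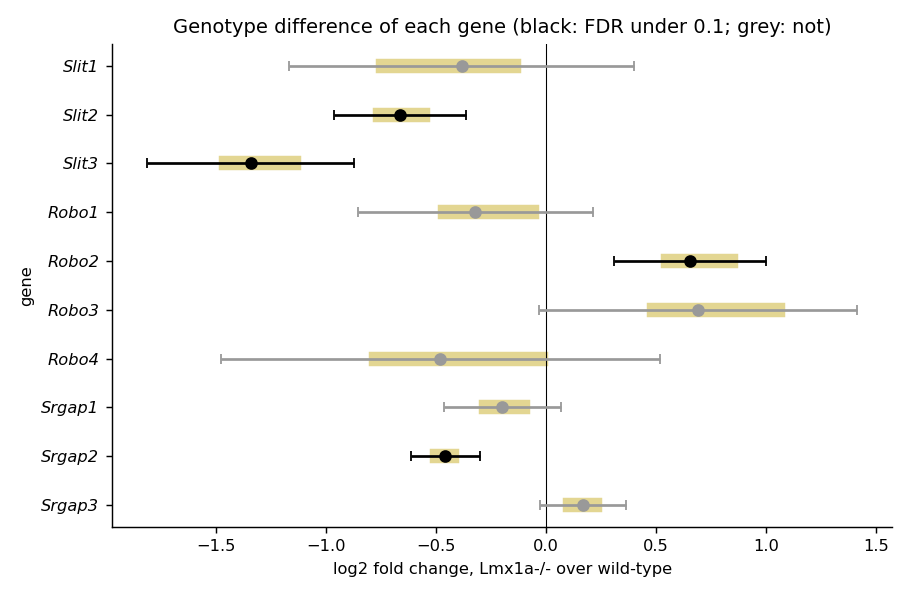
Log2 fold change of each gene, Lmx1a-/- over wild-type, with its 95% interval from edgeR's quasi-likelihood fit (points and thin bars, black for FDR under 0.1, grey otherwise) and the range over the 10 fits that each left out 1 embryo (yellow bands). The intervals of Slit2, Slit3, Robo2 and Srgap2 lie off 0, and no yellow band crosses 0.

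Counted by overlap alone, 2 of the 10 genes, Slit3 and Srgap2, had every mutant below every wild-type embryo, and none had every mutant above. Over all genes tested these shares were 2.27% and 2.17%. Wild-type embryo 3 had the lowest Slit2 and Slit3 and the highest Robo2 and Robo3 among wild-type embryos. In that embryo, as given above, CH and choroid plexus markers were lowest and mesenchymal markers highest, and their part in these values was not tested.

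Sex and tissue markers moved with genotype beside these 4 genes. In wild-type embryo 1, the single wild-type embryo with Y-linked transcripts, Slit2 (545), Slit3 (18.6) and Srgap2 (122 normalized CPM) were above, and Robo2 (93.4) below, all 5 mutants. With Xist as a covariate none of the 4 passed (edgeR quasi-likelihood FDR = 0.403 for Slit2, 0.354 for Slit3, 0.425 for Robo2 and 0.304 for Srgap2), with log2 fold changes of -0.69, -1.09, 0.83 and -0.45. That fit estimates the genotype term almost entirely from wild-type embryo 1. Over all genes tested it left 26 lower and 1 higher, beside 497 and 373 without a covariate.

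The 12 choroid plexus markers summed to 133 to 487 normalized CPM in wild-type and 154 to 232 in Lmx1a-/- libraries, with none at 0 throughout. With the mean log2 level of the 11 of these markers that were tested as a covariate, none of the 4 genes passed. Of all 21664 genes tested, 11 were lower and 9 higher in that fit, beside 497 and 373 without a covariate. The log2 fold changes of the 4 genes were then -0.48 for Slit2 (edgeR quasi-likelihood FDR = 0.814), -0.59 for Slit3 (0.785), 0.08 for Robo2 (0.972) and -0.42 for Srgap2 (0.534). Their SEs with and without the covariate were 0.25 and 0.14 for Slit2, and 0.28 and 0.22 for Slit3. For Robo2 they were 0.17 and 0.16, and for Srgap2 0.13 and 0.07. Other sums with shifted ranges were those of 8 CR cell markers (340 to 537 against 219 to 348) and 7 erythrocyte genes (616 to 1462 against 261 to 568). So were those of 11 meninges and mesenchyme markers (361 to 1041 against 289 to 554) and 7 cortical neuroepithelium markers (462 to 832 against 720 to 988). Of these, only the erythrocyte ranges did not overlap. The CR markers did not move as one, since of 7 tested, 3 were lower past the threshold and 1 was higher. The higher one was Lhx5 (log2 fold change 1.86, edgeR quasi-likelihood FDR = 0.0324). The part of these sums in the results was not tested.

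To compare genes with each other, levels were divided by the length of the union of their exons. In wild-type CH the order of normalized CPM per kb was Srgap3 (34.8), Slit2 (21.9), Srgap2 (9.84), Robo1 (6.47), Robo2 (6.31), Srgap1 (5.17), Slit3 (3.48), Slit1 (1.07), Robo4 (0.654) and Robo3 (0.421). Srgap3 was above Slit2, Slit2 above Srgap2 and Slit3 above Slit1 without overlap of their ranges over embryos. From Srgap2 down to Slit3, each gene overlapped the next, as did Slit1, Robo4 and Robo3. With the longest transcript as the length, Slit2 came before Srgap3 and the other 8 places held. Slit2 alone made up 82.8% ± 2.33 of the summed Slit level in wild-type CH (SD, n = 5), or 91.5% ± 1.26 with the longest transcripts.

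In Lmx1a-/- CH the order was Srgap3 (39.1), Slit2 (13.9), Robo2 (9.92), Srgap2 (7.16), Robo1 (5.17), Srgap1 (4.50), Slit3 (1.37), Slit1 (0.823), Robo3 (0.685) and Robo4 (0.470 normalized CPM per kb). Robo2 took the place between Slit2 and Srgap2, and its range overlapped neither. With the longest transcript as the length Robo2 kept that place, while Robo1 came before Srgap2 and Robo3 before Slit1. The ranges of Robo1 and Srgap1 overlapped, and from Slit3 down each gene overlapped the next.

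**Figure D3:**
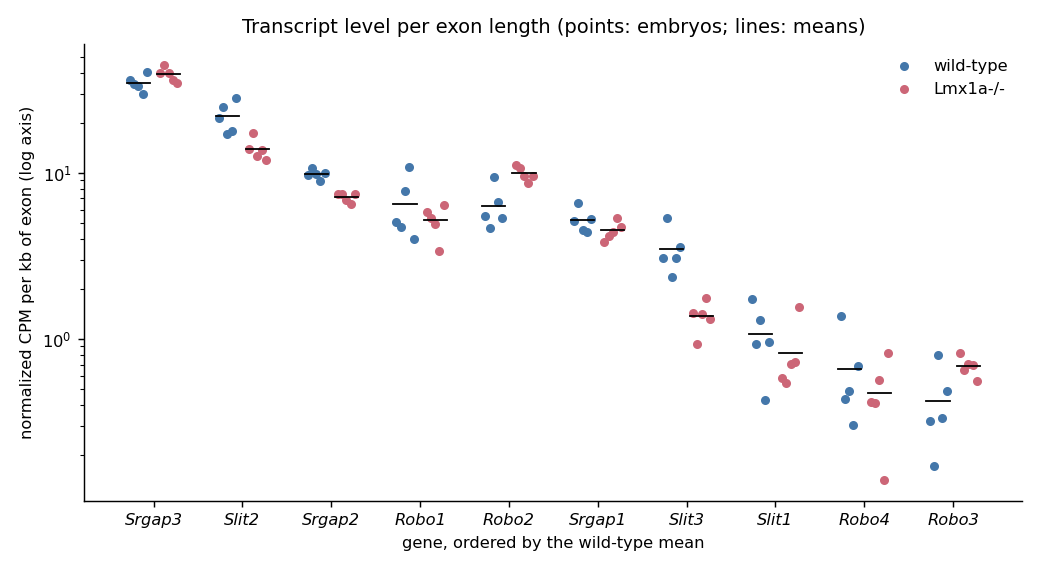
Normalized CPM per kb of exon (log axis) of the 10 genes, ordered by the wild-type mean, with 1 point per embryo (blue wild-type, red Lmx1a-/-) and a black line at each mean of 5 embryos. Srgap3 and Slit2 lead in both genotypes, and Robo2 passes Srgap2 in Lmx1a-/- CH.

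Within each family the make-up of the RNA differed between genotypes. These shares are built from the values above and are a description without a test. The summed level of the 3 ligands was 26.2, 31.1, 20.8, 21.4 and 32.8 normalized CPM per kb in wild-type and 15.9, 18.7, 14.7, 16.1 and 14.8 in Lmx1a-/- embryos, with every mutant lower. Slit3 made up 13.1% ± 2.60 of that sum in wild-type and 8.65% ± 2.21 in Lmx1a-/- CH, with the nearest embryos of both genotypes at 10.9%. With the longest transcripts the Slit3 shares were 6.57% ± 1.37 and 4.28% ± 1.14 and overlapped, whereas the Slit sum still separated the genotypes.

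The summed Robo level overlapped between genotypes (9.92 to 18.5 and 12.8 to 18.2 normalized CPM per kb). The ratio of Robo2 to Robo1 was 1.08, 0.985, 1.21, 0.619 and 1.34 in wild-type and 1.92, 1.99, 1.96, 2.55 and 1.49 in Lmx1a-/- embryos. Every mutant was higher, wild-type embryo 3 included, since that embryo was high in both receptors. The ratio of the Slit sum to the Robo sum was 2.14 ± 0.990 in wild-type and 1.00 ± 0.171 in Lmx1a-/- CH, and overlapped through wild-type embryos 3 and 4.

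The summed Srgap level was alike in range, 43.3 to 55.6 in wild-type and 46.9 to 56.4 normalized CPM per kb in Lmx1a-/- embryos. The ratio of Srgap3 to Srgap2 was 3.70, 3.20, 3.40, 3.34 and 4.07 in wild-type and 5.35, 5.98, 5.78, 5.54 and 4.67 in Lmx1a-/- embryos, with every mutant higher. Srgap2 gave 19.8% ± 1.28 of the sum in wild-type and 14.2% ± 1.08 in Lmx1a-/- CH (SD, n = 5 each). The separation of the Robo2 and Srgap2 shares held with the longest transcripts too.

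**Figure D4:**
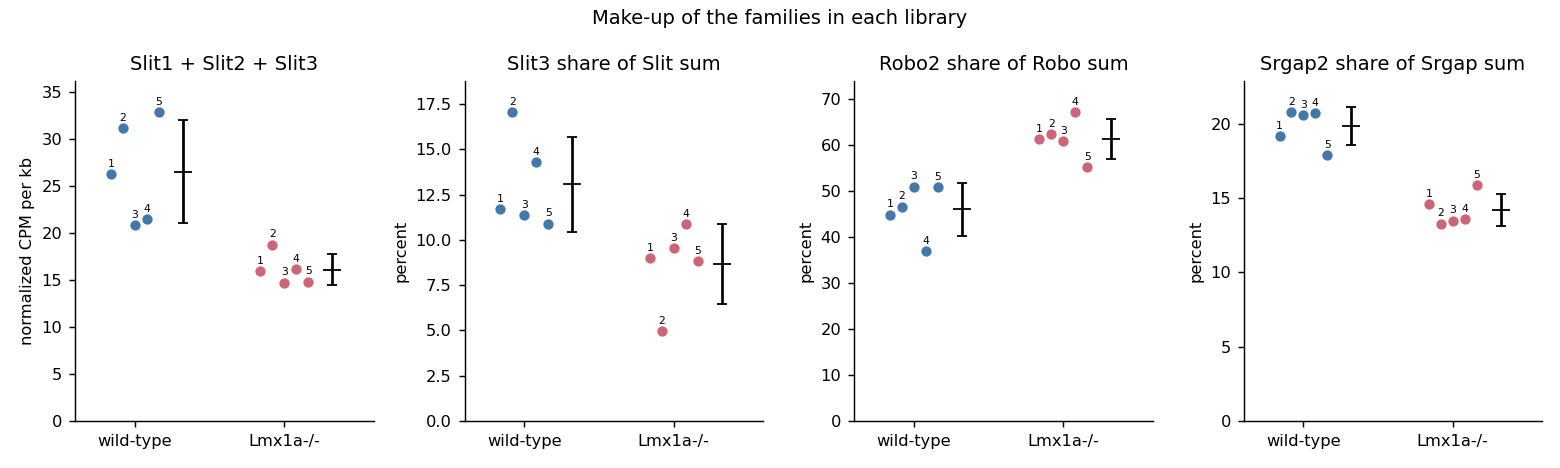
Summed Slit level (normalized CPM per kb), and the shares (percent, axes from 0) of Slit3, Robo2 and Srgap2 in their family's summed level, in each embryo (blue wild-type, red Lmx1a-/-, numbered as in the labels), with mean ± SD in black. The genotypes do not overlap in any panel, and for the Slit3 share they nearly touch at 10.9%.

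The log2 fold changes of the other genes of the pathway ran from -0.72 to 0.41. Of 44 listed partners and downstream genes, all tested, 1 was lower (2.27%, beside 2.29% of all genes tested) and 2 were higher (4.55%, beside 1.72%) at the same threshold. Their median log2 fold change was 0.02. An unadjusted p under 0.05 was found for 16 of the 44, and for 3545 of all 21664 genes. The list held 11 surface and matrix partners, 6 enzymes of heparan sulfate synthesis, on whose product Slit binding depends, and 27 cytoplasmic effectors. No heparan sulfate enzyme passed, and their log2 fold changes ran from -0.30 to 0.29.

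Pfn2, a profilin that feeds actin growth, rose from 83.6 ± 10.2 to 111 ± 8.19 normalized CPM (SD, n = 5 each), with a log2 fold change of 0.41 and no overlap (edgeR quasi-likelihood FDR = 0.0388). Plxna1, a semaphorin receptor that has been described as a Slit receptor too, rose from 78.5 ± 8.03 to 99.5 ± 5.62, with a log2 fold change of 0.34 and no overlap (FDR = 0.0535). Rhoa, a GTPase of the cytoskeleton, fell from 115 ± 7.36 to 92.2 ± 10.3, a log2 fold change of -0.32 with overlap (FDR = 0.077). Next in order of p, the laminin and Slit-binding protein gene Dag1 (-0.29, FDR = 0.11), the heparan sulfate proteoglycan gene Sdc1 (-0.55, FDR = 0.139) and the kinase gene Gsk3b (0.24, FDR = 0.144) did not pass.

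**Figure D5:**
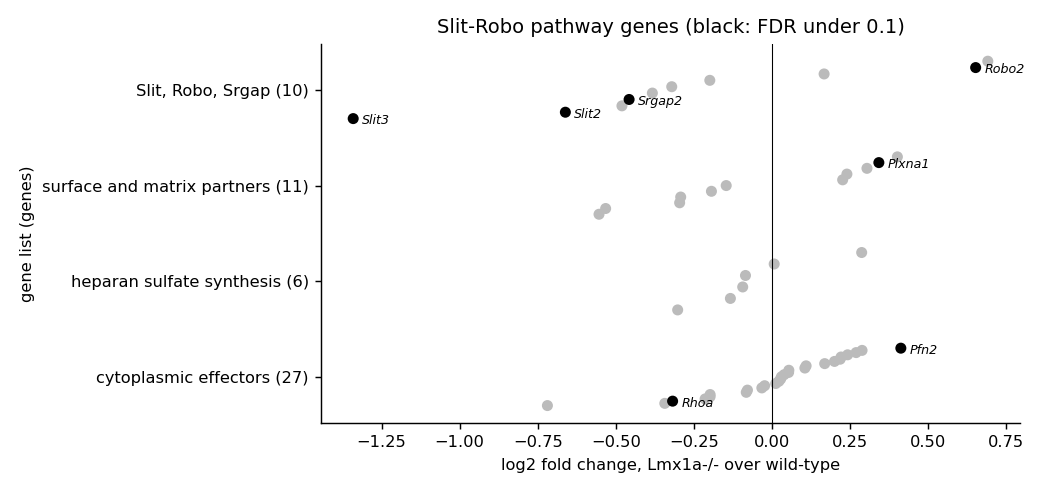
Log2 fold change, Lmx1a-/- over wild-type, of the 10 Slit, Robo and Srgap genes and of the 44 pathway genes by role, with 1 point per gene, named and black where FDR was under 0.1. In the 3 pathway groups the named genes are Plxna1, Rhoa and Pfn2, and Slit3 is the farthest from 0 of all genes drawn.

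For the 4 genes past the threshold, the genes with the most similar profiles over the 10 libraries were found among 11540 genes with a mean of at least 5 normalized CPM. Likeness is the root mean square difference of log2 profiles, each centered on its own mean. Nearest to Slit2 were Magi2 (0.15), Slc5a3, Slc7a6, Abhd2 and Lhfpl2 (0.16), and nearest to Slit3 were Il1rap (0.23), Rfxap, Fam81a, Acsf2 and Hpgds (0.27). Robo2 was followed most closely by Tmeff1 (0.17), Sept6, Gm49658, Gpc4 and Peli2 (0.19), of which Gm49658 lies inside Robo2. Nhsl2 (0.09), Cdk14, Cic, Rgl1 and Scarb1 (0.11) came nearest to Srgap2. These profiles share libraries and the genotype difference, so likeness is a description only.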

How the data were processed

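Per the labels and the study's methods, CH was captured by laser from frozen coronal sections of each embryo, RNA was purified with a PicoPure kit and libraries were made with a SMARTER mRNA-Seq kit. According to the submitters' processing notes and the methods, the authors trimmed with Trimmomatic, aligned with STAR 2.7.1a against GRCm38 and deposited raw read counts per gene from HTSeq 0.11.2. The strand setting is not given in the sources used here.

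Of 52508 rows, 281 exact repeats were dropped. The 21664 genes that reached 10 counts in 3 or more libraries were tested with edgeR 4.0.16 in R 4.3.3, using TMM scaling, a quasi-likelihood test of genotype without covariates over 5 wild-type and 5 Lmx1a-/- libraries, and Benjamini-Hochberg adjustment over all genes tested, with FDR under 0.1 as the threshold. Intervals use the moderated degrees of freedom. Depth was 19145952 to 36462780 counts per library, and the lowest count of the 10 genes in any library was 26 (Robo3, wild-type embryo 2). The test script was checked on simulated counts. Lengths, positions and overlaps came from GENCODE M21, and sequences from RefSeq tables.

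The gene families, the pathway and marker lists and the tests were chosen with earlier results of these data known, although all 10 family members were taken whatever their values. Named genes are the 10 genes, the pathway genes past the threshold with enough further genes by p to make 3 per direction, miR-218 genes, overlapping genes, the 5 nearest profiles, and the checks Lmx1a, Xist and Y-linked genes. Alternatives were DESeq2 1.42.0, RLE or library size scaling, other filters, the newer edgeR dispersion method, FDR under 0.05, a replicate block, covariates, embryos with Y-linked transcripts alone, and each embryo left out.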

Additional observations from a re-analysis of the deposited data

Results flagged for a closer look

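Samples were checked for a value far from the other 4 of their genotype by Dixon's ratio (critical value 0.71). Of 99 groups of 5, 15 passed it, where chance alone gives about 1 in 20, and several of the 15 are not independent of each other.

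Among Slit, Robo and Srgap values, Slit1 in Lmx1a-/- embryo 5 (9.22 normalized CPM) was above the other mutants, as was its share of the Slit sum there (10.5%). In Lmx1a-/- embryo 2 the ratio of Slit2 to Slit3 per length was 18.5, the highest of all, with the highest Slit2 and the lowest Slit3 of the mutants. Srgap1 made up 12.7% of the Srgap sum in wild-type embryo 2. Of the miR-218 rows, Mir218-1 stood out in Lmx1a-/- embryo 3 (1.36 normalized CPM) and Mir218-2 in wild-type embryo 4 (0.208), both on few counts. Sdc1 of the pathway list was high in wild-type embryo 4 (38.4 normalized CPM).

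Wild-type embryo 1 differed from the other wild-type embryos in Xist (1.01 normalized CPM) and in Y-linked transcripts, with Kdm5d at 121, Uty at 85.6, Eif2s3y at 68.9 and Ddx3y at 65.6 normalized CPM, and it had the highest erythrocyte marker sum (1462). Ddx3y was also high in Lmx1a-/- embryo 4 (84.3), whose endothelial marker sum was the lowest (23.5).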

How the results depend on the processing

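Slit2, Slit3 and Srgap2 passed in all 10 fits without 1 embryo, and these 3 and Robo2 passed with DESeq2, both other scalings, both other filters, the newer edgeR dispersion method and the replicate block. The number of lower members (3) went to 0 with the Xist covariate and with the choroid plexus covariate. Over all genes tested, 497 lower became 26 and 11 in these fits, and 373 higher became 1 and 9. Among embryos with Y-linked transcripts, the lone wild-type embryo is assumed to vary like the others. Calls from that fit are therefore not given, and it does not show that any gene passes within 1 sex. The log2 fold changes there were -0.63 for Slit2, -1.17 for Slit3, 0.84 for Robo2 and -0.45 for Srgap2. The number of higher members (1) went to 0 with FDR under 0.05 and with either covariate, and ranged from 0 to 2 over the fits without 1 embryo. Over all alternatives the FDR ranged from 0.000384 to 0.814 for Slit2, 2.18e-07 to 0.785 for Slit3, 0.00134 to 0.972 for Robo2 and 3.51e-06 to 0.534 for Srgap2. Pathway genes lower (1) became 5 with DESeq2, 2 with the newer dispersion method, and 0 with library size scaling, no filter, FDR under 0.05, the replicate block and either covariate, and ranged from 0 to 2 without 1 embryo. Pathway genes higher (2) became 3 with DESeq2 and with library size scaling, and 1 with FDR under 0.05 and the replicate block. They became 0 with either covariate, and ranged from 1 to 3 without 1 embryo. Directions reversed for genes that had not passed, Robo1 with the Xist covariate (0.0518) and among embryos with Y-linked transcripts (0.0219), and Robo3 (-0.18), Robo4 (0.25) and Srgap1 (0.0751) with the choroid plexus covariate. The cause of these changes was not tested. With the choroid plexus covariate the SE of Robo2 hardly moved (0.16 to 0.17) while its log2 fold change went from 0.65 to 0.08. The SE rose from 0.14 to 0.25 for Slit2, from 0.22 to 0.28 for Slit3 and from 0.07 to 0.13 for Srgap2.

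Embryo numbers gave no sign of pairing, with correlations of -0.201 to 0.0144 between same-numbered embryos, and 0 of 5 correlated best with their own number. The study compared mutants with wild-type littermates, but the labels do not say which embryos share a litter. Low correlations cannot exclude that same-numbered embryos do, so pairing is unknown. The replicate block left 3 members lower and 1 higher.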
